A study of Ambystoma mexicanum with 3 samples.

Results

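The comparison described here set 1 romidepsin-treated library (Rom 6 HPA) against its untreated partner (Cont 6 HPA), gene by gene across the transcriptome of the regenerating axolotl tail. Members were all gene symbols with at least 200 unique molecular identifiers (UMIs, the counted RNA molecules) in the 2 libraries together, which 8435 of the 16033 symbols reached. UMIs of all nuclei and of all features that carried the same symbol were summed and scaled to the library total as CPM, the number of UMIs per 1e6. The values of the starting tissue (0 HPA) are given beside some genes as a level only.

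The tissue was the tail of stage 42 embryos of *Ambystoma mexicanum*, amputated by 2 mm and kept in 10 μM romidepsin for Rom 6 HPA or in rearing water without drug for Cont 6 HPA. At 6 hours post amputation (HPA) 1 mm of the distal stump was taken from 100 embryos per arm and pooled, and nuclei were isolated for droplet RNA sequencing (10x Genomics, v3 chemistry). 0 HPA was a control library of the same stage from the day of amputation. In the labels of the 6 HPA samples the unit is the day, but the design text of the series has hours, and hours are used here.

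Each condition was 1 library from 1 pool, so no difference below has a replicate check, and no test between conditions was possible. A level is in CPM, the single value in parentheses after a pair of levels is their log2 ratio, positive where Rom 6 HPA was higher, and a range after it is its 95% interval, which covers counting error only. A symbol past 1.5-fold is called past the fold, or a call, for short. Because UMIs were summed over all nuclei, a smaller share of nuclei of a type and less RNA per nucleus cannot be told apart. The numbers of nuclei printed in the study for the romidepsin and control libraries are the other way round from the deposited matrices, and if the library labels themselves were exchanged, every direction below would turn round.

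Rom 6 HPA held 44735 nuclei and 58827729 UMIs, with a median of 1079 UMIs per nucleus, Cont 6 HPA 56936 nuclei and 105765943 UMIs, with a median of 1623, and 0 HPA 31522 nuclei and 42537606 UMIs, with a median of 1019. Rom 6 HPA and Cont 6 HPA shared 736 cell barcodes. The deepest 10% of nuclei of each library, with at least 2003 UMIs in Rom 6 HPA and 2212 in Cont 6 HPA, were also read on their own. They held 23.9% of the UMIs in Rom 6 HPA and 21.9% in Cont 6 HPA, and the remaining nuclei had medians of 1066 UMIs in Rom 6 HPA and 1603 in Cont 6 HPA. Markers of basal epidermis, muscle and fibroblasts were abundant in both libraries. Of 142 listed markers 133 matched a symbol. The markers *Esrp1*, *Foxa1*, *Pecam1*, *Spi1*, *Elavl3*, *Nkx6-1* and *Pax6* had no UMI in either library at 6 HPA. Over 13 cell type marker lists the log2 ratio of the summed CPM of Rom 6 HPA to Cont 6 HPA lay between −0.29 (melanocyte) and 0.19 (neuron).

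Histone deacetylases (HDACs) remove acetyl groups from lysines of histones and other proteins, and class I HDACs work as catalytic subunits of co-repressor complexes. Romidepsin is a cyclic peptide drug that is reduced inside cells and then chelates the zinc ion of class I HDACs. In the axolotl tail, the hours after amputation are a period of wound closure by migrating epidermis, induction of stress and immediate early genes and remodelling of the matrix, before a blastema grows.

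Most transcripts differed little between Rom 6 HPA and Cont 6 HPA. Of 8435 symbols, 421 (4.99%) were past 1.5-fold higher in Rom 6 HPA and 105 (1.24%) past 1.5-fold lower, which is 6.24% in either direction, and the median log2 ratio was 0.01. Counts of a list over all nuclei are to be read against 4.99% higher and 1.24% lower, and some lie near these shares. A total of 114 symbols were past 2-fold higher and 25 past 2-fold lower, and 9 and 3 were past 4-fold. Without nuclei whose barcode also occurred in another library, 426 symbols were past 1.5-fold higher and 103 lower. The lowest ratio was −2.44, for *Has2*. Symbols past the fold were mostly of low abundance: those higher in Rom 6 HPA had a median of 6.97 CPM there and 3.61 CPM in Cont 6 HPA, against medians of 11.7 CPM in Rom 6 HPA and 11.2 CPM in Cont 6 HPA over all symbols. *Fbxo31* (0.59), past the fold, and *Foxj1* (0.58), not past it, were the symbols nearest to it on the higher side, and *Safb* (−0.59), past it, and *Msmb* (−0.58), not past it, those on the lower side.

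**Figure D1:**
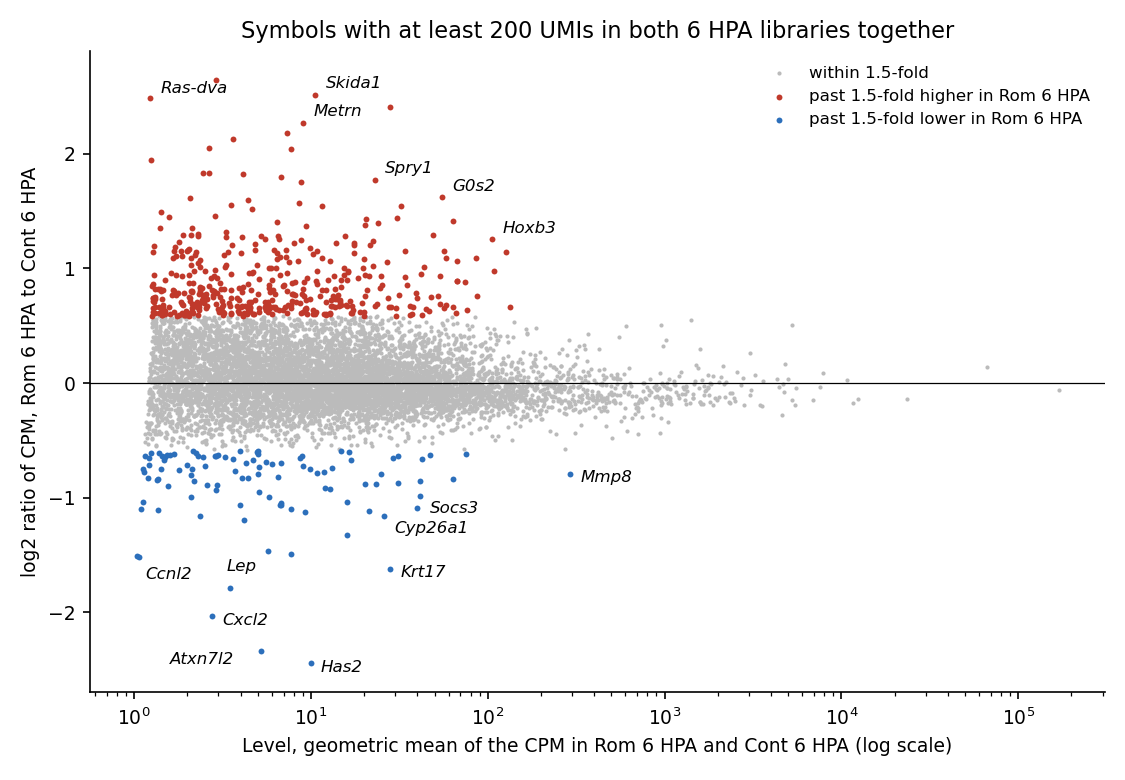
Log2 ratio of CPM of Rom 6 HPA to Cont 6 HPA for 8435 symbols (y axis) against their level (x axis, geometric mean of the 2 CPM values, log scale), with the symbols past 1.5-fold in red (421, higher in Rom 6 HPA) and blue (105, lower). The red points outnumber the blue ones, and *Mmp8* is the blue point of highest level.

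The balance of directions moved with the depth of the nuclei. Within the deepest 10% of nuclei, 366 symbols (4.34%) were past 1.5-fold higher in Rom 6 HPA and 513 (6.08%) lower. Among the other nuclei 927 (10.99%) were higher and 78 (0.92%) lower. Counts of a list within a depth class are to be read against these shares, and some of them lie near these shares. A set of 226 higher and 63 lower symbols was past the fold in the same direction in both depth classes. The median log2 ratio over all symbols was −0.06 in the deepest nuclei and 0.03 in the others. Values of both depth classes are given for many, not all, of the lists, and the part of depth in those results was not tested.

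The symbols with the highest ratios were of low to moderate level and of varied function. *Ras-dva*, a small GTPase of the Ras family, had 2.92 CPM in Rom 6 HPA and 0.52 CPM in Cont 6 HPA (log2 ratio 2.49, 2.05 to 2.96). *Rsbn1*, a nuclear protein, had 16.1 CPM in Rom 6 HPA against 4.77 CPM in Cont 6 HPA (1.75). For these genes the Rom 6 HPA library was the high one, and Cont 6 HPA lay below 0 HPA. *Tmprss9*, a membrane-bound serine protease, had 4.62 CPM in Rom 6 HPA and 1.3 CPM in Cont 6 HPA (1.84), and *Emx1.2*, a homeobox symbol of a family known from the forebrain, 4.98 CPM in Rom 6 HPA and 1.4 CPM in Cont 6 HPA (1.83). *Zic2a*, a zinc finger regulator of neural development, had 14.7 CPM in Rom 6 HPA and 4.96 CPM in Cont 6 HPA (1.57).

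The lowest ratios included genes that were far above their 0 HPA level in Cont 6 HPA, and genes that were not. *Sbk1*, a serine/threonine kinase, had 1.89 CPM in Rom 6 HPA, 6.5 CPM in Cont 6 HPA and 0.259 CPM at 0 HPA (−1.79, −2.09 to −1.49). *Rrad*, a Ras-related GTPase that binds calcium channel subunits, had 14.6 CPM in Rom 6 HPA, 31.5 CPM in Cont 6 HPA and 1.39 CPM at 0 HPA (−1.11). *Tnfrsf6b*, a soluble decoy receptor of the TNF receptor family, had 6.31 CPM in Rom 6 HPA, 13.7 CPM in Cont 6 HPA and 4.18 CPM at 0 HPA (−1.12). In all of these the Rom 6 HPA level lay between those of 0 HPA and Cont 6 HPA. By contrast *Gmnn*, encoding geminin, which blocks relicensing of replication origins, had 27.2 CPM in Rom 6 HPA and 57.9 CPM in Cont 6 HPA against 71.9 CPM at 0 HPA (−1.09, −1.17 to −1.01), so that Rom 6 HPA was the lowest library. The transcription factor *Snai2*, known for repressing epithelial adhesion genes, had the same order, with 11.2 CPM in Rom 6 HPA, 23.1 CPM in Cont 6 HPA and 28.8 CPM at 0 HPA (−1.04). *Bhlha9*, a basic helix-loop-helix factor known from limb development, had 4.71 CPM in Rom 6 HPA and 9.84 CPM in Cont 6 HPA (−1.06), and *Znf664*, a zinc finger gene, 4.64 CPM in Rom 6 HPA and 9.69 CPM in Cont 6 HPA (−1.06).

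Transcripts of the drug's own targets were nearly level between the libraries. *Hdac1* had 58.6 CPM in Rom 6 HPA and 60.2 CPM in Cont 6 HPA (log2 ratio −0.04, −0.10 to 0.02), *Hdac2* 30.8 CPM in Rom 6 HPA and 29.6 CPM in Cont 6 HPA (0.06), *Hdac3* 8.06 CPM in Rom 6 HPA and 8.81 CPM in Cont 6 HPA (−0.13), and *Hdac8* 2.31 CPM in Rom 6 HPA and 2.2 CPM in Cont 6 HPA (0.07). None of 8 measured deacetylases of classes I, II and IV was past 1.5-fold, and their median was 0.01. Neither was any of 13 histone acetyltransferases (median 0.23), 15 readers of acetylated lysine (0.18), 26 nucleosome remodellers (0.22) or 10 histone genes (−0.06). These flat counts over all nuclei did not hold by depth for some of these lists. Outside the deepest nuclei 2 acetyltransferases (median 0.29), 6 acetyl-lysine readers (0.33) and 8 remodellers (0.40) were past the fold higher, while in the deepest nuclei the medians were −0.01, −0.01 and 0.11, with 2 remodellers higher. Over all symbols 10.99% were past the fold higher outside the deepest nuclei and 4.34% in the deepest nuclei. No deacetylase was past the fold in either class. Transcript levels say nothing of enzyme activity or of acetylation, which were not measured.

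Among chromatin regulators that act beside HDACs, the calls were few. They were mostly higher, but so were 80.0% of the calls over all symbols. The share past the fold higher was 10.5% for co-repressor members and 7.69% for demethylases, against 4.99% over all symbols. Of 19 members of HDAC co-repressor complexes 2 were past the fold, both higher, among them *Rcor2*, a partner of the demethylase LSD1, with 5.03 CPM in Rom 6 HPA and 3.04 CPM in Cont 6 HPA (0.72, 0.49 to 0.96). In the deepest nuclei its log2 ratio was 0.25, within the fold. The demethylase *Kdm3a*, which acts on lysine 9 of histone H3 and is also a hypoxia target, had 25.9 CPM in Rom 6 HPA and 11.8 CPM in Cont 6 HPA (1.14), the only call among 13 demethylases over all nuclei. Outside the deepest nuclei 4 co-repressor members and 3 demethylases were past the fold higher, against 0 and 1 in the deepest nuclei. The share higher over all symbols was also larger outside the deepest nuclei, 10.99% against 4.34%.

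Polycomb proteins, which keep developmental genes silent, gave 4 higher and 1 lower calls among 27 members (median 0.23). The shares were 14.8% higher and 3.70% lower, against 4.99% and 1.24% over all symbols. In the deepest nuclei 4 were higher and 3 lower (median 0.05), and in the others 10 were higher and 1 lower (0.32). *Skida1*, a SKI/DACH domain gene, had 25.4 CPM in Rom 6 HPA and 4.43 CPM in Cont 6 HPA (2.52). The chromobox gene *Cbx2*, which reads trimethylated lysine 27 of histone H3, had 18.4 CPM in Rom 6 HPA and 8.8 CPM in Cont 6 HPA (1.07, 0.94 to 1.20), and its paralogue *Cbx8* 1.95 CPM in Rom 6 HPA and 0.851 CPM in Cont 6 HPA (1.20). *Pcgf1*, a RING finger partner in the variant Polycomb complex 1, was lower, with 1.0 CPM in Rom 6 HPA and 1.81 CPM in Cont 6 HPA (−0.85). The higher calls named here thus fell on *Skida1* and chromobox genes, and the lower call on *Pcgf1*. Over all nuclei, core subunits of Polycomb complex 2 lay on both sides of 0 within the fold. They were *Ezh2*, the methyltransferase, at −0.54, its paralogue *Ezh1* at 0.56 and *Suz12* at 0.51. In the deepest nuclei *Ezh2* was past the fold lower (−0.83), against −0.46 in the others.

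Trithorax and other lysine 4 methylation genes had the largest median of the chromatin lists, 0.40 over 15 members, without a single higher call over all nuclei. *Kmt2a*, *Kmt2c* and *Kmt2d*, which encode very large methyltransferases, had log2 ratios of 0.55, 0.58 and 0.46, none past the fold. In the deepest nuclei the same 3 genes stood at 0.17, 0.20 and 0.14, and in the other nuclei at 1.26, 1.27 and 1.07. The list median was 0.12 in the deepest nuclei and 0.79 in the others, where 9 members were past the fold higher, so that the larger differences were those of the other, shallower nuclei. The one call, *Smyd3*, a SET domain methyltransferase, was lower, with 0.901 CPM in Rom 6 HPA and 1.6 CPM in Cont 6 HPA (−0.83).

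Genes that HDAC inhibitors commonly raise in mammalian cell lines were partly higher here as well. Of 18 measured, 4 were past 1.5-fold higher and none lower, against 4.99% higher among all symbols (median 0.33). By depth the list was less even, with 5 higher and 2 lower in the deepest nuclei (median 0.10) and 5 higher and none lower in the others (0.29). *Gadd45b*, a stress protein that binds p38 pathway kinases, had 21.4 CPM in Rom 6 HPA, 11.2 CPM in Cont 6 HPA and 2.35 CPM at 0 HPA (0.94, 0.82 to 1.06). Its paralogues *Gadd45a* and *Gadd45g* had log2 ratios of 0.92 and 0.66, so that all 3 family members were past the fold higher. *Txnip*, which binds and inhibits thioredoxin, had 114 CPM in Rom 6 HPA and 67.3 CPM in Cont 6 HPA (0.76). Other members were within the fold, such as clusterin, *Clu* (−0.25), and the neuronal gene *Stmn2* (0.11). The list of genes commonly lowered by such drugs shares the cyclin gene *Ccnd1* with the list above. It gave no call among 16 members over all nuclei (median 0.12). *Myc* and *Mycn*, growth regulators in it, were at 0.40 and 0.41. In the deepest nuclei 1 member was past the fold lower, *Ezh2* (−0.83), and in the others 1 was higher.

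Hox genes, which specify position along the body axis and in limbs, were the family with the largest share past the fold. Of 20 Hox and ParaHox symbols with enough UMIs, 15 were past 1.5-fold higher in Rom 6 HPA and none lower, and the median log2 ratio was 0.80. The ratio was above 0 for 19 of them, and the exception was the ParaHox gene *Cdx4* (3.08 CPM in Rom 6 HPA and 3.5 CPM in Cont 6 HPA, −0.19). The most abundant, *Hoxb3*, had 164 CPM (161 to 168) in Rom 6 HPA, 68.8 CPM (67.2 to 70.4) in Cont 6 HPA and 179 CPM at 0 HPA (1.26, 1.21 to 1.30). *Hoxa3*, its paralogue in the A cluster, had 55 CPM in Rom 6 HPA, 18.8 CPM in Cont 6 HPA and 24.3 CPM at 0 HPA (1.55). The 2 genes differed in where 0 HPA lay: above Rom 6 HPA for *Hoxb3*, nearer to Cont 6 HPA for *Hoxa3*.

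Posterior Hox genes, which pattern the trunk and tail, were among the calls, though not all of them passed. *Hoxa13*, of the most posterior group and known from distal limb and tail, had 6.02 CPM in Rom 6 HPA, 2.05 CPM in Cont 6 HPA and 3.67 CPM at 0 HPA (1.55, 1.30 to 1.80). *Hoxc13* had 52.1 CPM in Rom 6 HPA and 34.5 CPM in Cont 6 HPA (0.59), *Hoxd11* 67.8 CPM in Rom 6 HPA and 40.0 CPM in Cont 6 HPA (0.76), *Hoxd10* 47.3 CPM in Rom 6 HPA and 26.1 CPM in Cont 6 HPA (0.86), and *Hoxc9* 38.6 CPM in Rom 6 HPA and 18.5 CPM in Cont 6 HPA (1.06). Not past the fold were *Hoxd12*, an abundant posterior gene with 88.2 CPM in Rom 6 HPA and 67.2 CPM in Cont 6 HPA (0.39; 0.04 in the deepest nuclei), and *Hoxc11a* (0.55; 0.22). *Hoxc13*, *Hoxd10* and *Hoxd11* were within the fold in the deepest nuclei, at 0.24, 0.29 and 0.27. The calls over all nuclei came from the A, B, C and D clusters and from anterior and posterior groups. The size differed with depth: the median was 0.38 in the deepest nuclei, where 6 were past the fold higher and 1 lower, and 1.39 in the other nuclei, where 17 were higher. *Hoxa3* was past the fold in both (1.65 in the deepest nuclei and 1.49 in the others), as was *Hoxa13* (1.68 and 1.33). Symbols were spelled as deposited, and reads shared between similar family members may be split among them.

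**Figure D2:**
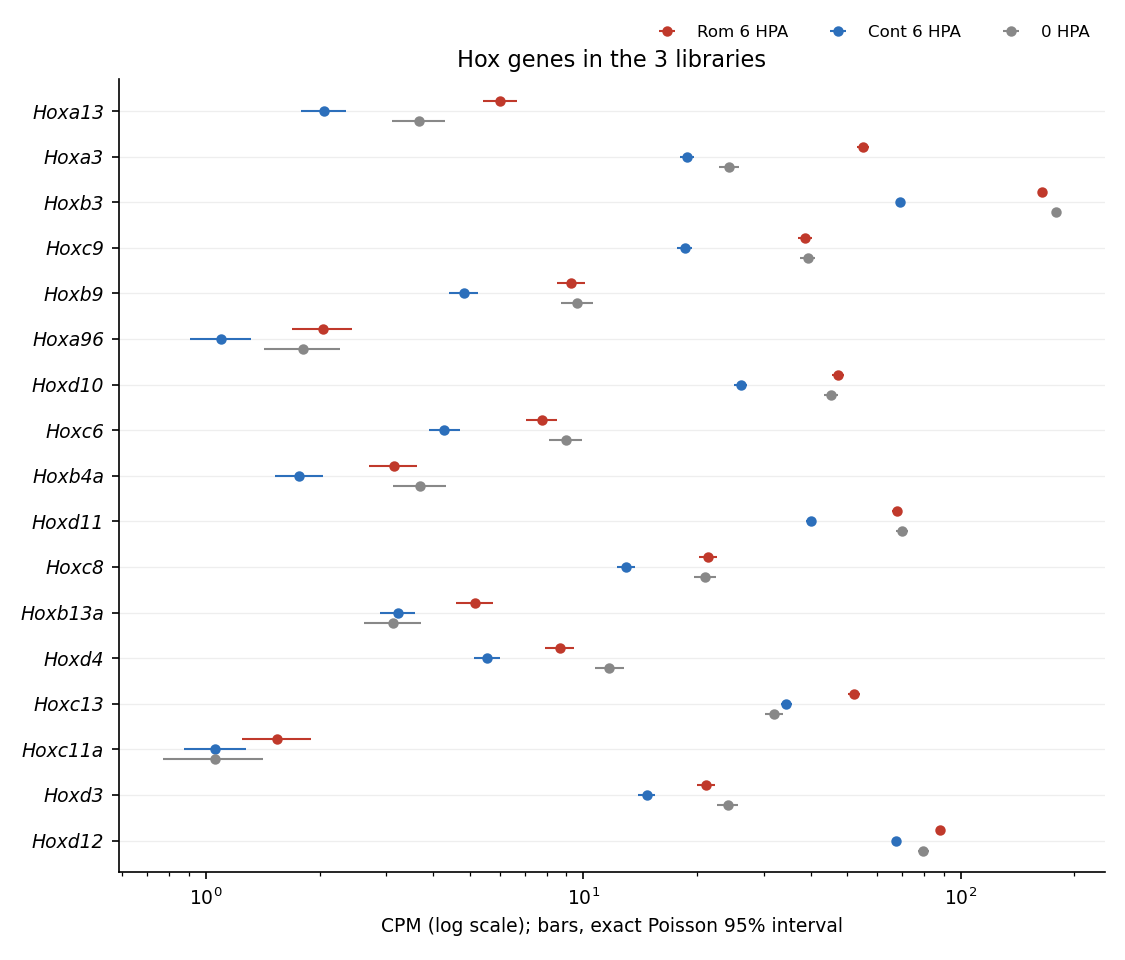
CPM of Hox genes (x axis, log scale; bars, exact Poisson 95% intervals) in Rom 6 HPA, Cont 6 HPA and 0 HPA, ordered by the ratio of Rom 6 HPA to Cont 6 HPA. Every Rom 6 HPA point lies to the right of its Cont 6 HPA point, and 0 HPA lies near or above Rom 6 HPA for *Hoxb3*, *Hoxc9* and *Hoxd11*.

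Sox factors, DNA-bending regulators of progenitor and skeletal fates, gave 4 higher calls among 6 (median 0.75; 0.64 in the deepest nuclei). *Sox5*, active in cartilage and neural lineages, had 9.3 CPM in Rom 6 HPA and 4.39 CPM in Cont 6 HPA (1.08, 0.90 to 1.27), *Sox9*, a master regulator of cartilage, 9.76 CPM in Rom 6 HPA and 6.09 CPM in Cont 6 HPA (0.68), and *Sox11*, a neural progenitor factor, 6.1 CPM in Rom 6 HPA and 3.47 CPM in Cont 6 HPA (0.81). The endothelial factor *Sox7* had 3.52 CPM in Rom 6 HPA and 1.79 CPM in Cont 6 HPA (0.98). These values were low, and their intervals cover counting error only. The member with most of the Sox UMIs, *Sox19a*, lay on the other side within the fold, with 57.9 CPM in Rom 6 HPA and 70.7 CPM in Cont 6 HPA (−0.29, −0.35 to −0.23), and the summed level of the family was 93.6 CPM in Rom 6 HPA and 91.5 CPM in Cont 6 HPA (0.03). T-box and GATA factors gave 4 higher calls among 6 (median 0.67). *Tbx3* and *Tbx2*, related repressors in limb and other appendages, had 7.9 CPM in Rom 6 HPA against 2.76 CPM in Cont 6 HPA (1.52) and 12.3 CPM in Rom 6 HPA against 5.29 CPM in Cont 6 HPA (1.22). The paraxial mesoderm gene *Tbx18* had 2.89 CPM in Rom 6 HPA and 1.77 CPM in Cont 6 HPA (0.71), and *Gata3*, an epidermal and haematopoietic factor, 8.19 CPM in Rom 6 HPA and 5.27 CPM in Cont 6 HPA (0.64; 0.53 in the deepest nuclei).

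Forkhead factors had 3 higher calls among 10. *Foxc1a*, a mesoderm regulator, had 3.25 CPM in Rom 6 HPA and 1.49 CPM in Cont 6 HPA (1.12), and the insulin-regulated factors *Foxo4* and *Foxo3* had log2 ratios of 0.98 and 0.66, of which *Foxo3* was within the fold outside the deepest nuclei (0.26). The pattern used to collect other homeobox genes also took symbols that are not homeobox genes, and without them 9 of 27 members were higher and 1 lower (median 0.43). Among the genuine ones *Dlx6a*, of the distal-less family of appendage and facial development, had 7.34 CPM in Rom 6 HPA and 3.16 CPM in Cont 6 HPA (1.22), *Tshz1*, of the teashirt family, 15.2 CPM in Rom 6 HPA and 6.95 CPM in Cont 6 HPA (1.13), and *Six1b*, of muscle progenitors, 8.18 CPM in Rom 6 HPA and 4.08 CPM in Cont 6 HPA (1.00). All 3 teashirt genes were past the fold, with *Tshz3* at 0.75 and *Tshz2* at 0.69. The LIM homeobox gene *Lhx2* was lower, with 1.16 CPM in Rom 6 HPA and 1.8 CPM in Cont 6 HPA (−0.64, −1.06 to −0.23).

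Other transcription factor families were mixed. KLF, SP, EGR and ZBTB zinc finger genes gave 7 higher and 4 lower calls of 36, and the 4 lower ones were all ZBTB genes, led by *Zbtb22* (0.782 CPM in Rom 6 HPA and 1.61 CPM in Cont 6 HPA, −1.04). *Klf17* had 10.3 CPM in Rom 6 HPA and 4.29 CPM in Cont 6 HPA (1.26), and *Zbtb48*, a telomere-binding factor, 3.4 CPM in Rom 6 HPA and 1.33 CPM in Cont 6 HPA (1.35). Of 117 genes of the ZNF and ZFP series 11 were higher and 3 lower (median 0.13; −0.02 in the deepest nuclei, with 10 higher and 7 lower), with *Znf146* at 5.42 CPM in Rom 6 HPA and 1.3 CPM in Cont 6 HPA (2.06) and *Zfp319* at 1.58 CPM in Rom 6 HPA and 3.53 CPM in Cont 6 HPA (−1.16). That share of higher calls, 9.40%, was nearer the 4.99% over all symbols than those of the Hox, Sox and T-box lists. *Bcl11b*, a zinc finger repressor of skin and T cells, had 19.8 CPM in Rom 6 HPA and 6.81 CPM in Cont 6 HPA (1.54). Among 24 bZIP factors 5 were higher (20.8%, against 4.99% over all symbols). One of them, *Creb3l2*, a membrane-bound factor of the secretory pathway, had 9.67 CPM in Rom 6 HPA and 5.54 CPM in Cont 6 HPA (0.80). Basic helix-loop-helix factors gave 5 higher and 1 lower calls of 31.

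**Figure D3:**
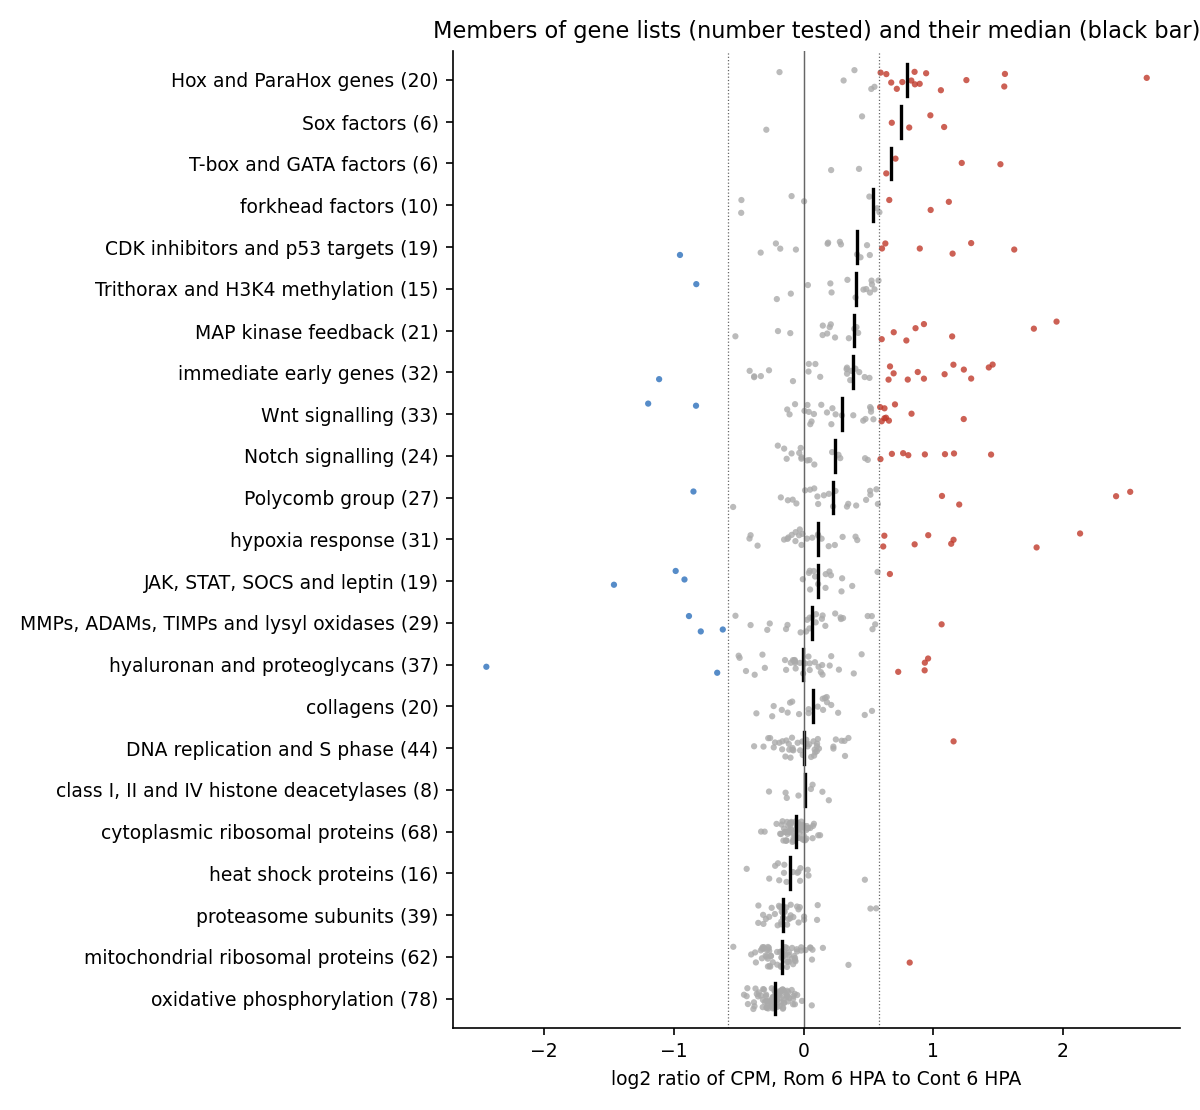
Log2 ratio of CPM of Rom 6 HPA to Cont 6 HPA (x axis) for every tested member of 23 gene lists (1 point per gene; black bar, list median; number tested in parentheses). Hox genes lie furthest to the right with a median of 0.80, and the 78 oxidative phosphorylation genes form a narrow cloud left of 0 with a median of −0.22.

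Immediate early genes, which are switched on within minutes of wounding or growth factor signals without new protein synthesis, had a ratio above 0 in 25 of 32 cases. Of these 32, 12 were past the fold higher and 1 lower (median 0.38; 0.36 in the deepest nuclei and 0.40 in the others). *Egr2* and *Egr1*, zinc finger factors of this class, had 4.73 CPM in Rom 6 HPA, 1.72 CPM in Cont 6 HPA and 0.212 CPM at 0 HPA (1.46, 1.18 to 1.74) and 7.94 CPM in Rom 6 HPA, 5.0 CPM in Cont 6 HPA and 0.564 CPM at 0 HPA (0.67). For both, the 6 HPA libraries lay far above 0 HPA and Rom 6 HPA above Cont 6 HPA. Their relative *Egr3* lay on the other side within the fold, with 3.62 CPM in Rom 6 HPA and 4.55 CPM in Cont 6 HPA (−0.33, −0.57 to −0.09). Its 0 HPA level was 0.165 CPM. *Jund* and *Junb*, subunits of the AP-1 factor, had log2 ratios of 1.09 (1.04 to 1.14) and 0.69 (0.63 to 0.76), *Junb* with 68.1 CPM in Rom 6 HPA, 42.1 CPM in Cont 6 HPA and 11.5 CPM at 0 HPA. *Ier5* had 33.6 CPM in Rom 6 HPA and 12.5 CPM in Cont 6 HPA (1.43), *Ppp1r15a*, a phosphatase subunit that restores translation after stress, 34.3 CPM in Rom 6 HPA and 14.6 CPM in Cont 6 HPA (1.24), and *Cyr61*, a secreted matricellular protein, 101 CPM in Rom 6 HPA and 54.7 CPM in Cont 6 HPA (0.88). The AP-1 genes were not of one kind: *Fosl1* had 16 CPM in Rom 6 HPA, 19.3 CPM in Cont 6 HPA and 0.329 CPM at 0 HPA (−0.27), *Fosb* 16.2 CPM in Rom 6 HPA, 12 CPM in Cont 6 HPA and 0.353 CPM at 0 HPA (0.43), and *Jun* 18.9 CPM in Rom 6 HPA, 18.4 CPM in Cont 6 HPA and 13 CPM at 0 HPA (0.04), all within the fold. *Rrad*, described above, was the one member past the fold lower.

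Negative feedback genes of the MAP kinase pathway, which dampen growth factor signals, gave 8 higher calls and none lower among 21 (median 0.39). Within the deepest nuclei 6 were higher and 1 lower (median 0.19), and in the others 10 were higher (0.58). *Spry1*, a Ras pathway inhibitor, had 42.5 CPM in Rom 6 HPA and 12.4 CPM in Cont 6 HPA (1.78). *Dusp8*, a phosphatase of JNK and p38, had 2.45 CPM in Rom 6 HPA and 0.633 CPM in Cont 6 HPA (1.95, 1.52 to 2.39), *Dusp4* 5.08 CPM in Rom 6 HPA and 2.3 CPM in Cont 6 HPA (1.15), *Dusp1* 46.9 CPM in Rom 6 HPA and 24.7 CPM in Cont 6 HPA (0.93), and *Dusp10* 5.37 CPM in Rom 6 HPA and 3.1 CPM in Cont 6 HPA (0.79). The ERK-selective phosphatase *Dusp6* was on the other side, within the fold, with 18.3 CPM in Rom 6 HPA and 26.4 CPM in Cont 6 HPA (−0.53, −0.63 to −0.42). *Il17rd*, also called Sef, an inhibitor of FGF signalling, had 14.6 CPM in Rom 6 HPA and 8.03 CPM in Cont 6 HPA (0.86).

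In the Wnt pathway 9 of 33 measured genes were past the fold higher and 2 lower. These shares, 27.3% and 6.06%, stand against 4.99% and 1.24% over all symbols. The median was 0.30, with 0.17 in the deepest nuclei and 0.49 in the others. Ligands moved both ways: *Wnt4* had 2.74 CPM in Rom 6 HPA and 1.16 CPM in Cont 6 HPA (1.23, 0.89 to 1.59), and *Wnt10a*, an epidermal ligand, 2.75 CPM in Rom 6 HPA, 6.32 CPM in Cont 6 HPA and 1.65 CPM at 0 HPA (−1.20, −1.45 to −0.95). *Wnt5b* and *Wnt2b* had smaller ratios of 0.60 and 0.59. Receptors past the fold were all higher, namely the Frizzled genes *Fzd8* (5.24 CPM in Rom 6 HPA and 2.94 CPM in Cont 6 HPA, 0.83) and *Fzd3* (0.70) and the Wnt5a co-receptor *Ror2* (11.8 CPM in Rom 6 HPA and 7.5 CPM in Cont 6 HPA, 0.66). The secreted antagonist *Dkk1* was lower, with 3.08 CPM in Rom 6 HPA and 5.46 CPM in Cont 6 HPA (−0.83, −1.08 to −0.59). *Axin2*, a target of beta-catenin signalling, was within the fold (0.21), with −0.15 in the deepest nuclei and 0.49 in the others. Some higher calls of the list are not described here, and *Axin2* alone does not give the state of the pathway.

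Notch, a pathway between touching cells, gave 8 higher calls and none lower among 24 (33.3% higher, against 4.99% over all symbols). The list median was 0.24. It was 0.03 in the deepest nuclei, with 5 higher and 1 lower, and 0.29 in the others, with 10 higher. The receptor *Notch1* had 7.22 CPM in Rom 6 HPA and 3.23 CPM in Cont 6 HPA (1.16, 0.95 to 1.37). Among ligands *Dll1* had 16.8 CPM in Rom 6 HPA and 7.9 CPM in Cont 6 HPA (1.09), *Dll4* 1.87 CPM in Rom 6 HPA and 1.07 CPM in Cont 6 HPA (0.81), and *Jag1* 18.6 CPM in Rom 6 HPA and 11.6 CPM in Cont 6 HPA (0.68; 0.54 in the deepest nuclei). The feedback target *Nrarp* had 74.5 CPM in Rom 6 HPA and 39 CPM in Cont 6 HPA (0.94), and *Hes6* and *Hey2*, helix-loop-helix genes of the family that holds Notch targets, had log2 ratios of 1.45 and 0.77. Receptor, ligand and some targets were thus on the same side, while *Hes1*, a main Notch target in many tissues, was near 0 (−0.03).

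Hippo and YAP genes gave 5 higher calls of 21 (23.8%, against 4.99% over all symbols), with 4 in the deepest nuclei and 8 in the others. *Limd1*, a LIM protein that restrains LATS kinases, had 10.6 CPM in Rom 6 HPA and 4.96 CPM in Cont 6 HPA (1.10). *Amot*, which binds YAP, had 6.49 CPM in Rom 6 HPA and 3.35 CPM in Cont 6 HPA (0.96). *Axl*, a receptor tyrosine kinase, had 18.3 CPM in Rom 6 HPA and 11.5 CPM in Cont 6 HPA (0.67). YAP targets differed among themselves. *Cyr61*, described above, was among the 5 higher calls (0.88; 0.82 in the deepest nuclei and 0.90 in the others). *Ctgf* (101 CPM in Rom 6 HPA and 80.3 CPM in Cont 6 HPA, 0.34) and *Ankrd1* (77.5 CPM in Rom 6 HPA and 81.6 CPM in Cont 6 HPA, −0.07) were within the fold. In the Hedgehog list the receptor and target *Ptch1* had 12.3 CPM in Rom 6 HPA, 5.87 CPM in Cont 6 HPA and 11.8 CPM at 0 HPA (1.07, 0.91 to 1.22), and *Hhat*, which adds palmitate to the ligand, had 1.24 CPM in Rom 6 HPA and 1.92 CPM in Cont 6 HPA (−0.63; −0.53 outside the deepest nuclei). *Smad7*, the inhibitory Smad of TGF-beta signalling, led 3 higher calls (8.82%, against 4.99% over all symbols) among 34 TGF-beta and BMP genes (1.22). With it stood *Ski*, a repressor of Smad activity, at 12 CPM in Rom 6 HPA and 6.83 CPM in Cont 6 HPA (0.82), and the ligand *Bmp2* at 3.18 CPM in Rom 6 HPA and 1.96 CPM in Cont 6 HPA (0.70), whose ratio was 0.31 in the deepest nuclei. The list median of 0.13 was −0.14 in the deepest nuclei and 0.24 in the others.

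In the retinoic acid pathway the degrading enzyme *Cyp26a1* had 17.4 CPM in Rom 6 HPA, 38.9 CPM in Cont 6 HPA and 53.9 CPM at 0 HPA (−1.16, −1.26 to −1.06), with Rom 6 HPA the lowest of the 3 libraries. The nuclear receptor co-repressor *Nrip1* was higher, with 17.3 CPM in Rom 6 HPA and 10.9 CPM in Cont 6 HPA (0.67; 0.40 in the deepest nuclei). The other 17 of 19 members were within the fold over all nuclei. In the deepest nuclei 7 of the 19 were past the fold lower and none higher (median −0.17), whereas in the other nuclei 1 was lower and 1 higher (0.04). *Cyp26b1*, a related degrading enzyme, was at −0.75 in the deepest nuclei and 0.24 in the others.

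JAK/STAT genes gave 3 lower and 1 higher calls among 19. The share lower, 15.8%, was larger than the 1.24% over all symbols. Yet 15 of the 19 ratios were above 0, and the median was 0.11. In the deepest nuclei 3 were lower and 1 higher (median −0.005), and in the others 3 were lower and 4 higher (0.11). *Socs3*, the main feedback inhibitor of STAT3 signalling, had 29.3 CPM in Rom 6 HPA, 58.1 CPM in Cont 6 HPA and 3.6 CPM at 0 HPA (−0.99, −1.06 to −0.91). *Socs1*, which inhibits JAK kinases, had 8.7 CPM in Rom 6 HPA, 16.4 CPM in Cont 6 HPA and 5.67 CPM at 0 HPA (−0.92, −1.06 to −0.77), and the hormone gene *Lep*, whose receptor signals through STAT3, had a log2 ratio of −1.46. All 3 had their highest value in Cont 6 HPA. *Socs5* was on the other side, with 47.4 CPM in Rom 6 HPA and 29.9 CPM in Cont 6 HPA (0.67), as was *Cish*, a target of STAT5, within the fold at 0.57.

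Innate immune genes showed single members rather than groups. The interferon regulators *Irf7* and *Irf1* were the 2 calls among 18 interferon and sensing genes, with *Irf1* at 22.7 CPM in Rom 6 HPA, 11.5 CPM in Cont 6 HPA and 4.7 CPM at 0 HPA (0.98, 0.86 to 1.09) and *Irf7* at 2.18. The chemokine *Cxcl2*, which attracts neutrophils, had 1.36 CPM in Rom 6 HPA, 5.57 CPM in Cont 6 HPA and 2.92 CPM at 0 HPA (−2.03, −2.39 to −1.69). *Ccl28*, a chemokine of mucosal epithelia, was past the fold the other way, with 8.14 CPM in Rom 6 HPA and 3.34 CPM in Cont 6 HPA, and its 0 HPA level was higher than both, 16.9 CPM (1.29). Of 25 NF-kappaB and TNF genes 3 were higher, *Tnfaip2* (0.87), the adaptor *Traf4* (8.18 CPM in Rom 6 HPA and 4.77 CPM in Cont 6 HPA, 0.78) and the receptor *Tnfrsf19* (0.71). The log2 ratio of the summed myeloid markers was −0.01 (−0.10 to 0.09).

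**Figure D4:**
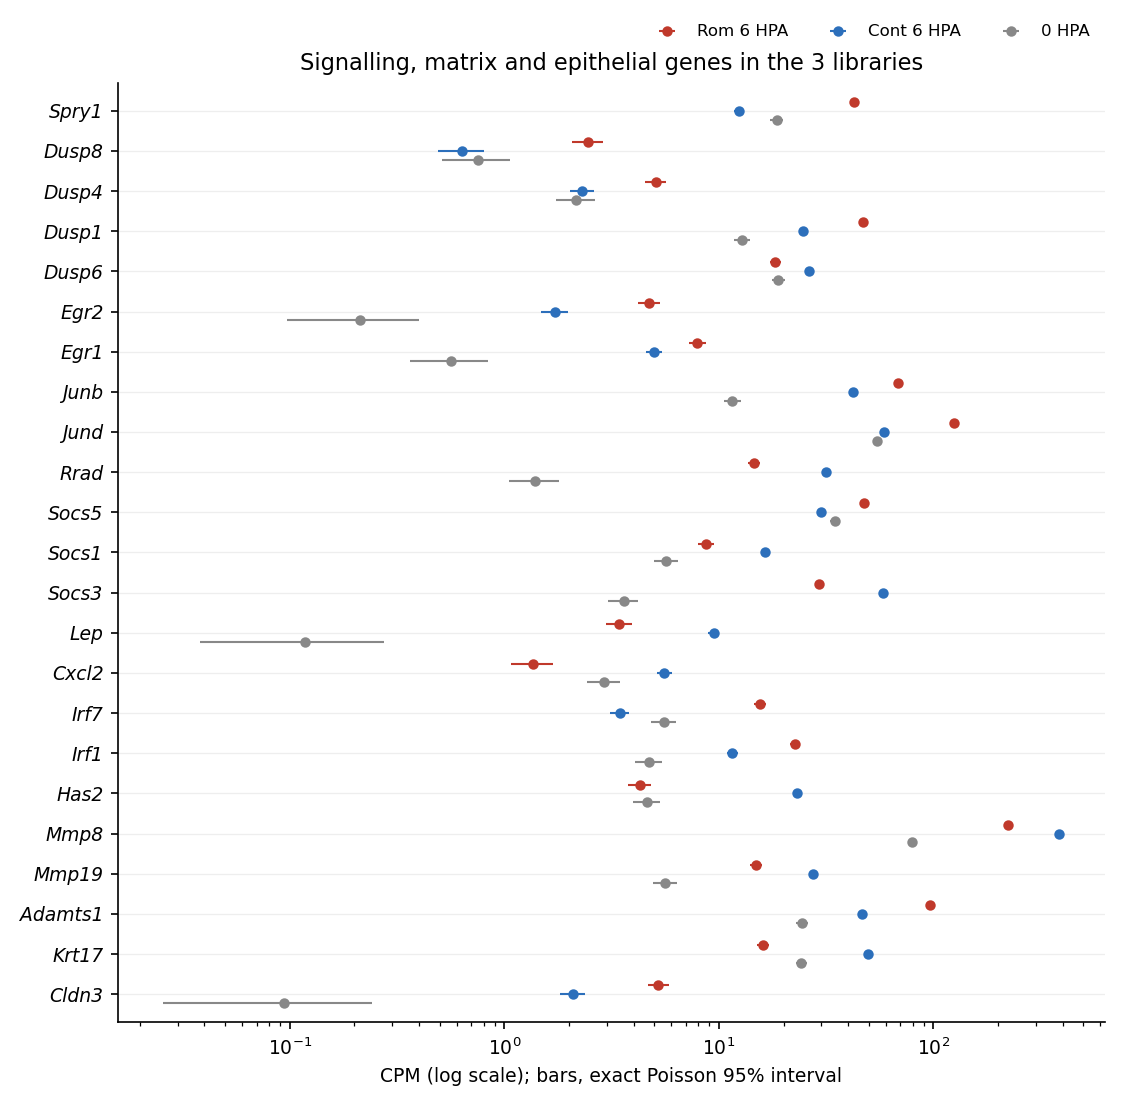
CPM of signalling, matrix and epithelial genes (x axis, log scale; bars, exact Poisson 95% intervals) in Rom 6 HPA, Cont 6 HPA and 0 HPA. For *Socs3*, *Rrad* and *Mmp8* the Rom 6 HPA point lies between 0 HPA and Cont 6 HPA, and for *Spry1*, *Egr2* and *Irf7* it lies to the right of both.

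Hypoxia genes were split between a few members with large ratios and a majority near 0. Of 31, 8 were past the fold higher and none lower, while the median was 0.11. *Ankrd37*, an ankyrin repeat gene induced by HIF-1, had 7.58 CPM in Rom 6 HPA, 1.73 CPM in Cont 6 HPA and 3.1 CPM at 0 HPA (2.13, 1.88 to 2.39). *Slc2a1*, the glucose transporter GLUT1, had 84.1 CPM in Rom 6 HPA, 37.8 CPM in Cont 6 HPA and 31.4 CPM at 0 HPA (1.16, 1.10 to 1.22), and *Stc2*, a secreted glycoprotein, 34.2 CPM in Rom 6 HPA and 18.9 CPM in Cont 6 HPA (0.86). *Cited2*, which competes with HIF-1 for CBP/p300, stood at 1.80, and the angiogenic ligand *Vegfa* at 0.61. The regulated subunit of HIF-1, *Hif1a*, was at 0.11, and its glycolytic targets *Ldha* and *Pgk1* at −0.02 and −0.06. The 20 glycolysis and lactate genes, many of them HIF targets, gave 2 calls, *Slc2a1* and the kinase *Pdk2* (0.62), and had a median of 0.05.

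Cyclin-dependent kinase inhibitors and p53 targets gave 6 higher and 1 lower calls among 19 (median 0.41; 0.36 in the deepest nuclei and 0.39 in the others). *Cdkn2d*, the p19 inhibitor of CDK4 and CDK6, had 2.52 CPM in Rom 6 HPA and 1.13 CPM in Cont 6 HPA (1.15, 0.79 to 1.51). *Pmaip1*, encoding the pro-apoptotic protein NOXA, had 17.1 CPM in Rom 6 HPA, 9.18 CPM in Cont 6 HPA and 3.17 CPM at 0 HPA (0.90), whereas *Phlda3*, a p53 target that inhibits AKT, had 3.65 CPM in Rom 6 HPA, 7.07 CPM in Cont 6 HPA and 3.69 CPM at 0 HPA (−0.95, −1.18 to −0.73). *Btg2* and *Tob2*, anti-proliferative proteins that bind the CCR4-NOT deadenylase, had 76.7 CPM in Rom 6 HPA against 31.3 CPM in Cont 6 HPA (1.29, 1.23 to 1.36) and 15.1 CPM in Rom 6 HPA against 5.83 CPM in Cont 6 HPA (1.37). They were the only calls among 32 m6A, mRNA decay and P body genes, a share of 6.25%, near the 4.99% over all symbols. Their deep-nuclei ratios of 1.41 and 1.43 were as large.

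Endoplasmic reticulum stress and lipid genes added further higher calls. Of 23 unfolded protein response genes 4 were higher, led by *Ppp1r15a* and by *Ddit3*, the stress factor CHOP, with 9.45 CPM in Rom 6 HPA and 5.22 CPM in Cont 6 HPA (0.86), while the chaperone *Hspa5*, also called BiP, had 804 CPM in Rom 6 HPA and 1090 CPM in Cont 6 HPA (−0.44). The median was 0.09, and 19 members were within the fold. In cholesterol metabolism 5 of 26 were higher. They were regulators and a transporter: *Mylip*, an E3 ligase for the LDL receptor (2.04), the sterol sensors *Insig1* (17.2 CPM in Rom 6 HPA and 10.2 CPM in Cont 6 HPA, 0.76) and *Scap* (0.82), the factor *Srebf1* (0.75) and the exporter *Abca1* (37.2 CPM in Rom 6 HPA and 24.8 CPM in Cont 6 HPA, 0.59). In the deepest nuclei *Scap* and *Srebf1* were within the fold (0.42 and 0.51). Iron handling gave only lower calls, 3 of 9 (33.3%, against 1.24% lower over all symbols), all of low level. They were the metalloreductases *Steap1* (0.748 CPM in Rom 6 HPA and 1.6 CPM in Cont 6 HPA, −1.10) and *Steap4* (−0.61) and ceruloplasmin, *Cp* (−0.78). Ferritin, *Fth1*, which held most UMIs of the list, was within the fold, with 1653 CPM in Rom 6 HPA and 1731 CPM in Cont 6 HPA (−0.07). Outside the deepest nuclei *Steap4* and *Cp* were within the fold (−0.31 and −0.46).

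Few neurotransmitter receptors reached the UMI minimum, 13 of 92, and 4 of these were past the fold higher (30.8%, against 4.99% over all symbols). Of the 13, 6 had a ratio below 0, and the median was 0.16, with −0.02 in the deepest nuclei and 0.35 in the others. *Adrb1*, an adrenaline receptor, had 9.23 CPM in Rom 6 HPA against 4.12 CPM in Cont 6 HPA (1.16, 0.98 to 1.35). The glutamate receptor *Grm7* (0.76) and the nicotinic subunit *Chrna4* (0.73) had smaller ratios at lower levels. In the list of Eph receptors, ephrins, semaphorins and plexins 3 of 15 were higher (20%, against 4.99% over all symbols). They were *Epha4*, an ephrin receptor, with 24.2 CPM in Rom 6 HPA and 9.92 CPM in Cont 6 HPA (1.29), *Sema4c*, a semaphorin, with 3.28 CPM in Rom 6 HPA and 1.34 CPM in Cont 6 HPA (1.29), and the semaphorin and VEGF co-receptor *Nrp2* with 41.1 CPM in Rom 6 HPA and 24.1 CPM in Cont 6 HPA (0.77). The summed neuron markers were 85.6 CPM in Rom 6 HPA and 75.3 CPM in Cont 6 HPA (0.19), and the part of nuclear composition in these receptor values was not tested.

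Matrix genes did not move as a block. None of 20 collagens (median 0.07) or 12 integrins (0.11) was past the fold. *Has2*, the main hyaluronan synthase, had the lowest ratio of all symbols, with 4.27 CPM (3.76 to 4.83) in Rom 6 HPA, 23.2 CPM (22.3 to 24.2) in Cont 6 HPA and 4.61 CPM at 0 HPA (−2.44), and the hyaluronan-binding proteoglycan *Vcan* had 33.7 CPM in Rom 6 HPA, 53.4 CPM in Cont 6 HPA and 84.4 CPM at 0 HPA (−0.67). For *Vcan* the deepest nuclei carried the difference (−1.31, against −0.09 in the others), whereas *Has2* was lower in both (−2.67 and −2.35). Past the fold on the other side, *Hyal2*, a hyaluronidase, had 2.57 CPM in Rom 6 HPA and 1.34 CPM in Cont 6 HPA (0.93), and the chondroitin sulfate proteoglycan *Cspg4*, of pericytes and progenitors, 29.6 CPM in Rom 6 HPA and 15.5 CPM in Cont 6 HPA (0.93, 0.84 to 1.03).

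Among matrix proteases and their inhibitors 3 of 29 were lower and 1 higher. *Mmp8*, a collagenase and the most abundant symbol past the fold, had 222 CPM in Rom 6 HPA, 385 CPM in Cont 6 HPA and 79.6 CPM at 0 HPA (−0.79, −0.82 to −0.76). *Mmp19* had 14.9 CPM in Rom 6 HPA, 27.5 CPM in Cont 6 HPA and 5.6 CPM at 0 HPA (−0.88), and the gelatinase *Mmp2* 61.1 CPM in Rom 6 HPA, 94 CPM in Cont 6 HPA and 33.9 CPM at 0 HPA (−0.62; −0.55 outside the deepest nuclei). In all 3 the Rom 6 HPA level lay between 0 HPA and Cont 6 HPA. The inhibitor *Timp1* had 33.1 CPM in Rom 6 HPA, 22.6 CPM in Cont 6 HPA and 5.17 CPM at 0 HPA (0.55), not past the fold. The aggrecanase *Adamts1* was past it higher, with 96.6 CPM in Rom 6 HPA, 46.2 CPM in Cont 6 HPA and 24.4 CPM at 0 HPA (1.06, 1.01 to 1.12). The list median was 0.07 over all nuclei, −0.18 in the deepest nuclei and 0.19 in the others, with 6 lower and 1 higher in the deepest nuclei and 2 lower and 4 higher in the others.

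Epithelial structural genes gave few calls. Of 25 keratins and other intermediate filament genes 1 was lower, the wound keratin *Krt17* (−1.62), and 1 higher, the simple epithelial keratin *Krt19* (4.06 CPM in Rom 6 HPA and 2.16 CPM in Cont 6 HPA, 0.91; 0.40 in the deepest nuclei). The remaining 23 were within the fold, and their copies may share reads. The matricellular gene *Nov*, of the CCN family, was lower, with 2.09 CPM in Rom 6 HPA and 3.99 CPM in Cont 6 HPA (−0.93), opposite to its relative *Cyr61*. The basal epidermis marker sum was 23295 CPM in Rom 6 HPA and 25539 CPM in Cont 6 HPA (−0.13), and that of surface epithelium 1484 CPM in Rom 6 HPA and 1615 CPM in Cont 6 HPA (−0.12).

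The list of ciliary genes gave 6 higher calls among 52 (11.5%, against 4.99% over all symbols) with a median of 0.02. The pattern used to collect it also took a mitotic spindle gene, which is counted among these calls. The calls were led by regulators: *Rfx3*, a transcription factor of ciliary genes, had 2.24 CPM in Rom 6 HPA and 0.879 CPM in Cont 6 HPA (1.35, 0.96 to 1.75), and *Rfx4*, its relative in the neural tube, 8.55 CPM in Rom 6 HPA and 3.57 CPM in Cont 6 HPA (1.26, 1.06 to 1.45). The intraflagellar transport subunits *Ift81* and *Ift57* followed at 0.77 and 0.71. The axonemal and transport genes were otherwise centred near 0, and *Foxj1*, the main regulator of motile cilia, was not past the fold (0.58).

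Genes of DNA replication were level as a group, with a median of 0.01 over 44 and a single call. That call, *Cdc6*, which loads the MCM helicase at origins, had 16.2 CPM in Rom 6 HPA, 7.25 CPM in Cont 6 HPA and 12.2 CPM at 0 HPA (1.16, 1.02 to 1.30), with 1.15 in the deepest nuclei and 1.15 in the others. Its loading partner *Cdt1* had 16.2 CPM in Rom 6 HPA and 12.7 CPM in Cont 6 HPA (0.35), the sliding clamp *Pcna* 115 CPM in Rom 6 HPA and 149 CPM in Cont 6 HPA (−0.38), and geminin, the inhibitor of Cdt1, was past 2-fold lower as given above. The proliferation marker *Mki67* had 272 CPM in Rom 6 HPA and 259.9 CPM in Cont 6 HPA (0.07). Mitotic genes gave 2 higher calls of 42 (median 0.19), a share of 4.76%, near the 4.99% over all symbols. In the deepest nuclei 1 was higher and 1 lower, and in the others 9 were higher. A call over all nuclei was the spindle pole gene *Aspm*, with 45.7 CPM in Rom 6 HPA and 30.1 CPM in Cont 6 HPA (0.60). The other was the centriole kinase *Plk4*, with 12.7 CPM in Rom 6 HPA and 8.36 CPM in Cont 6 HPA (0.60). Neither held in both depth classes, *Aspm* being at 0.37 in the deepest nuclei and *Plk4* at 0.58 in the others. Among 16 cyclins 2 were past the fold higher (12.5%, against 4.99% over all symbols) and 1 lower. Of their ratios 14 were above 0, and the median was 0.19. The lower one, *Ccnl2*, which acts with splicing factors, had 0.612 CPM in Rom 6 HPA and 1.74 CPM in Cont 6 HPA (−1.51, −2.07 to −0.99). Its Rom 6 HPA level rested on 36 UMIs.

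Housekeeping machinery showed small, even shifts. Of 78 genes of oxidative phosphorylation none was past the fold, yet 77 had a ratio below 0, with a median of −0.22 and a range of −0.46 (*Cox7c*) to 0.06 (*Atp5s*). The median was −0.28 in the deepest nuclei and −0.20 in the others, so that this shift, unlike that of the Trithorax list, was of like size in both. Symbols of the mitochondrial genome took 16.8% of the UMIs in Rom 6 HPA and 17.5% in Cont 6 HPA. Mitochondrial ribosomal proteins had a median of −0.16 over 62 with 1 call, *Mrps23* (0.82), and proteasome subunits −0.16 over 39 with none. Cytoplasmic ribosomal proteins (−0.06 over 68) and heat shock proteins (−0.11 over 16) had no call either. E3 ligases of the TRIM, FBX, KLHL and RNF families, a large and mixed class, gave 6 higher and 4 lower calls of 103 with a median of −0.0037. *Rnf24* was highest, with 1.9 CPM in Rom 6 HPA and 0.86 CPM in Cont 6 HPA (1.15), and after *Rnf223* the muscle-linked ligase *Trim32* was lowest, with 1.14 CPM in Rom 6 HPA and 2.12 CPM in Cont 6 HPA (−0.89).

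Across the 109 pathway and family lists examined, 31 had no member past the fold, 50 had only higher members, 5 only lower ones and 23 both. These counts stand beside 80.0% higher among the calls over all symbols. Some genes, such as *Btg2* and *Kdm3a*, were in more than 1 list. The median exceeded 0.5 in 4 lists, those of Hox, Sox, T-box and GATA, and forkhead factors. Over all lists the medians ran from −0.22 to 0.80. In the deepest nuclei the Sox and the T-box and GATA lists kept medians of 0.64 and 0.69, that of the forkhead list was 0.40, and that of the Hox list 0.38.

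**Figure D5:**
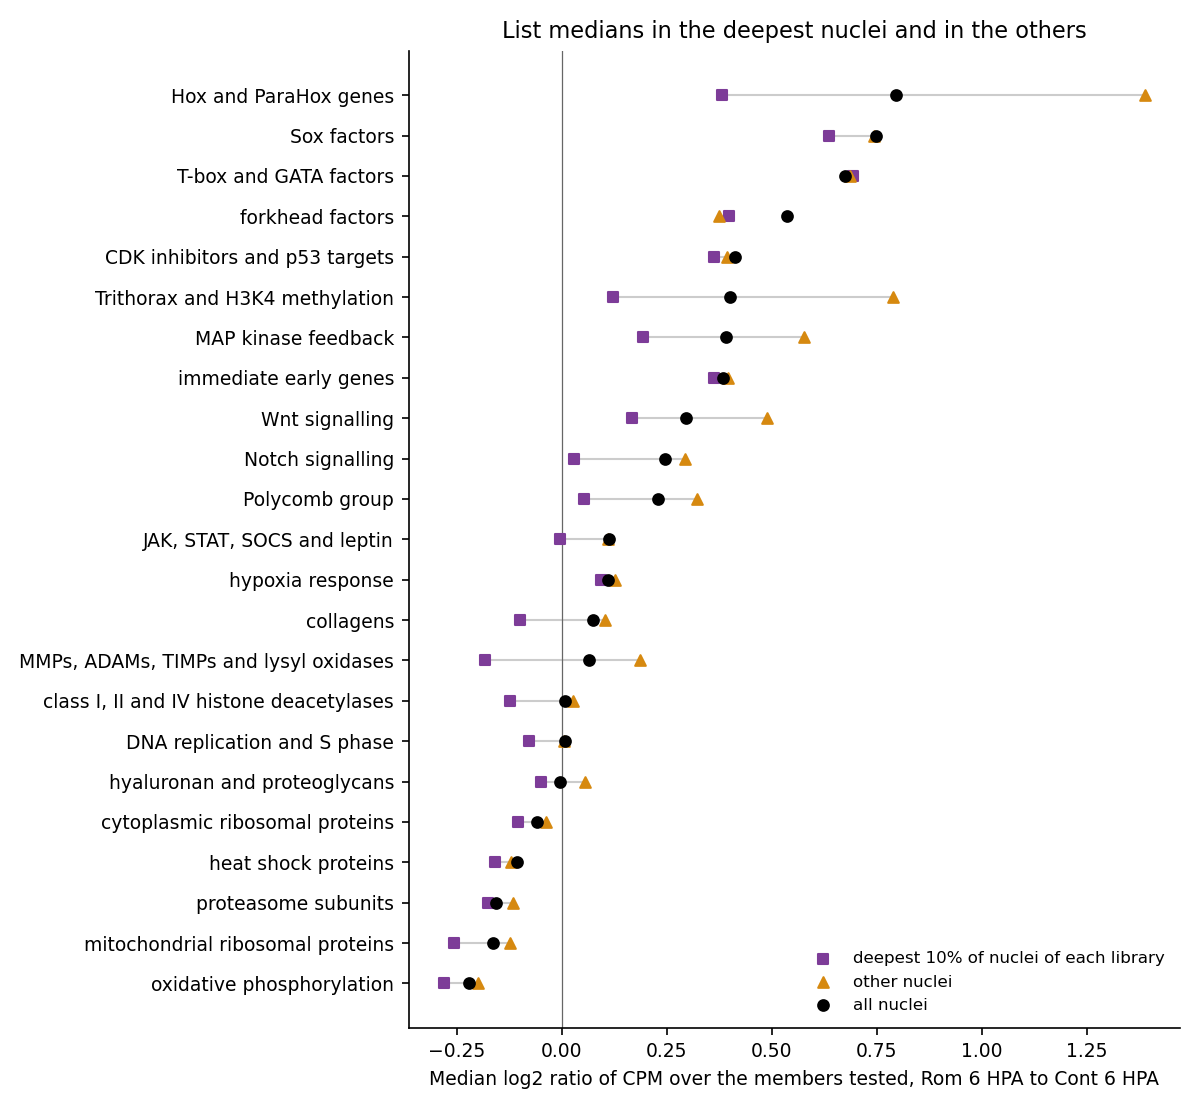
Median log2 ratio of CPM of Rom 6 HPA to Cont 6 HPA (x axis) of 23 gene lists over all nuclei (black circles), in the deepest 10% of nuclei of each library (purple squares) and in the other nuclei (orange triangles). The symbols lie close together for immediate early genes and oxidative phosphorylation, and furthest apart for Hox genes (0.38 and 1.39) and Trithorax genes (0.12 and 0.79).

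Of the genes named above and past the fold over all nuclei, the following were within it in the deepest nuclei: *Abca1*, *Aspm*, *Bmp2*, *Cbx8*, *Dll4*, *Gata3*, *Hoxc13*, *Hoxd10*, *Hoxd11*, *Ift81*, *Jag1*, *Junb*, *Krt19*, *Mrps23*, *Nrip1*, *Nrp2*, *Pdk2*, *Rcor2*, *Scap*, *Srebf1*, *Tshz2*, *Tshz3*, *Wnt2b* and *Wnt5b*. Within it in the other nuclei were *Cp*, *Egr1*, *Foxo3*, *Hhat*, *Mmp2*, *Plk4*, *Steap4*, *Vcan* and *Vegfa*.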

How the data were processed

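The authors isolated nuclei from pooled tail tips, made 1 droplet library per condition, mapped reads to an axolotl transcript assembly and deposited unnormalized UMI counts per transcript feature and barcode. Cell Ranger 3.0.2 is named in the matrix headers and 6.0.0 in the submitters' processing notes, and the genome build and alignment settings are not given in the sources used here. Of 91648 features, 36348 carried a symbol. Here all deposited nuclei were kept, doublets included, and the counts of each symbol were summed per library and scaled to CPM. The log2 ratio between the libraries has an exact binomial (Clopper-Pearson) 95% interval and CPM values have exact Poisson intervals. With 1 library per condition no test was run, and a symbol counts as past the fold at a ratio of at least 1.5 in either direction. Samples were grouped by their labels. Named genes were the 20 symbols with the highest lower bound and the 20 with the lowest upper bound of the interval, up to 4 members per list and direction, further members by role, and *Hdac1*, *Hdac2*, *Hdac3* and *Hdac8*. A few of these are not reported here. Members and lists were chosen with earlier results of these data known. Alternatives changed the scaling, the filter, the fold, the features and the nuclei used. Steps were tested on simulated data (Python 3.11.15, numpy 2.4.6, scipy 1.17.1, pandas 2.3.3, matplotlib 3.10.9).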

Additional observations from a re-analysis of the deposited data

Results flagged for a closer look

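Features without a symbol, which the comparison by symbol does not use, also carried differences. Of 9254 such features with at least 200 UMIs in the 2 libraries together, 906 (9.79%) were past 1.5-fold higher in Rom 6 HPA and 214 (2.31%) past 1.5-fold lower, with a median log2 ratio of 0.13. In the deepest 10% of nuclei 535 were higher and 805 lower (median −0.03), and in the other nuclei 2940 were higher and 100 lower (median 0.24). The feature AC_02200050524.1 had 254 UMIs in Rom 6 HPA, 63 in Cont 6 HPA and 52 at 0 HPA (log2 ratio of CPM 2.86, 2.45 to 3.28), and AC_02200013682.1 had 16 UMIs in Rom 6 HPA, 333 in Cont 6 HPA and 19 at 0 HPA (−3.53, −4.36 to −2.81). The identity of these features is not known from the files used here, and the part of depth in their counts was not tested.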

How the results depend on the processing

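The median log2 ratio over all symbols stayed between −0.06 and 0.04 under every alternative run, and no named gene past the fold changed direction. Many of the named genes were chosen by their ratios in these same libraries, so a change of direction was unlikely from the start. Their constancy is no independent check. Against 421 symbols past 1.5-fold higher and 105 lower over all nuclei, the deepest 10% of nuclei gave 366 and 513 and the other nuclei 927 and 78, so that the share of calls that were higher was 41.6% and 92.2%, against 80.0%; the cause was not tested. A minimum of 1000 UMIs gave 182 and 45 (of 5592 symbols), and 1 UMI in each library as the only filter 1743 and 725 (of 13253), since other symbols were tested. A 2-fold limit gave 114 and 25, and a whole counting interval past 1.5-fold 212 and 47. An alternative chosen after seeing the data, past 1.5-fold the same way in both depth classes, gave 226 and 63. Median-of-ratios scaling (413 and 106), a total without the 50 most abundant symbols and features without a symbol (465 and 97), only the top feature of each symbol (430 and 97), equal weight of nuclei (452 and 92) and nuclei with unshared barcodes (426 and 103) stayed within 1.5 times. Of 209 named genes past the fold, 167 were past it in the deepest nuclei, 195 in the others, 196 with equal weight, 206 with median-of-ratios scaling and 205 without shared barcodes. List medians moved by over 0.1 for 44 of 79 lists in the deepest nuclei and 15 in the others. The homeobox list without 7 other symbols was also chosen after seeing the data (median 0.43, against 0.34).

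Depth limits low genes most: counting intervals had a median width of 0.28 and a widest of 1.08 on the log2 scale. Rom 6 HPA had fewer UMIs per nucleus than Cont 6 HPA, and library, pool, depth and drug cannot be told apart with 1 library per condition. No paired analysis was possible because each condition has 1 library and the labels carry no replicate numbers; for the same reason no replicate could be left out.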

Other observations

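Further gene groups of the same 2 libraries were read by the same rule. *Mknk2*, a kinase downstream of ERK and p38 that phosphorylates the initiation factor eIF4E, had 104 CPM in Rom 6 HPA, 39 CPM in Cont 6 HPA and 56.5 CPM at 0 HPA (log2 ratio 1.41, 1.36 to 1.47), the only call among 29 genes of the MAP kinase cascade, whose median was 0.03. In a separate list of 18 axon guidance and neurotrophin genes 3 were past 1.5-fold higher (16.7%, against 4.99% over all symbols). They were *Metrn*, a secreted factor of glial and axonal growth (2.27), its relative *Metrnl* (0.75) and the neurotrophin receptor *Ngfr*, with 29.2 CPM in Rom 6 HPA and 13.8 CPM in Cont 6 HPA (1.08, 0.98 to 1.18). In epithelial junctions the tight junction gene *Cldn3* had 5.22 CPM in Rom 6 HPA, 2.09 CPM in Cont 6 HPA and 0.094 CPM at 0 HPA (1.32, 1.07 to 1.58), the only call of 22, and among 21 cadherins *Fat2*, an atypical cadherin of epithelia, had 5.98 CPM in Rom 6 HPA and 2.73 CPM in Cont 6 HPA (1.13). *Elf3*, an epithelial ETS factor, had 32 CPM in Rom 6 HPA, 15.8 CPM in Cont 6 HPA and 105 CPM at 0 HPA (1.02). *Irs4*, an adaptor of insulin signalling, had 32.9 CPM in Rom 6 HPA and 18.5 CPM in Cont 6 HPA (0.83), and *F3*, the tissue factor that starts coagulation, 8.21 CPM in Rom 6 HPA and 14.1 CPM in Cont 6 HPA (−0.78).

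A muscle gene differed in ratio between the depth classes. *Dmd*, encoding dystrophin, had 167 CPM in Rom 6 HPA, 106 CPM in Cont 6 HPA and 171 CPM at 0 HPA (0.66), with 0.45 in the deepest nuclei and 1.49 in the others, and it was the only call among 41 sarcomere and calcium release genes (median 0.07). Titin, *Ttn*, had 1091 CPM in Rom 6 HPA and 874 CPM in Cont 6 HPA (0.32), and the calcium release channel *Ryr1* 35.2 CPM in Rom 6 HPA and 24.5 CPM in Cont 6 HPA (0.52). The summed muscle markers were 20171 CPM in Rom 6 HPA and 19006 CPM in Cont 6 HPA (0.09). The inward rectifier *Kcnj2* had 20.3 CPM in Rom 6 HPA and 10.9 CPM in Cont 6 HPA (0.90), and the muscle sodium channel *Scn4a* 2.36 CPM in Rom 6 HPA and 1.45 CPM in Cont 6 HPA (0.71). The part of the share of muscle nuclei in these values was not tested.

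Gene lists of the machinery of transcription and translation had few calls or none. None of 26 RNA polymerase subunits (median −0.06), 46 core spliceosome genes (−0.08), 46 translation factors (−0.07) or 23 genes of the tricarboxylic acid cycle (−0.12) was past the fold. Of 23 Mediator subunits 2 were higher (8.70%, against 4.99% over all symbols), *Med7* (0.99) and *Med22* (0.80). Of 26 elongation genes 2 were higher (7.69%), *Eaf1* (0.95) and *Aff1* (0.67; 0.49 in the deepest nuclei), both of super elongation complexes. The nucleolar protein *Nop56* was lower, with 18.9 CPM in Rom 6 HPA and 32.8 CPM in Cont 6 HPA (−0.80, −0.90 to −0.70), and the polymerase I factor *Rrn3* higher (0.60). Among 7 DNA methylation genes none was past the fold over all nuclei. *Tet2*, which oxidises methylcytosine, was closest (30.3 CPM in Rom 6 HPA and 20.8 CPM in Cont 6 HPA, 0.55). Outside the deepest nuclei 3 of the 7 were past the fold higher (median 0.50), against 0 in the deepest nuclei (0.10).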
